A study of Mus musculus with 12 samples.

Results

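Myoblast fusion is the step at which single muscle precursors join into multinucleated fibres. The 10 genes described here encode proteins with a role in that step: Mymk, Mymx, Cdh15, Cdh2, Jam2, Jam3, Dock1, Dock5, Myof and Dysf. They were picked by gene symbol, each symbol matched 1 row, and they make up 10 of the 78298 genes in the deposited tables. All 10 were among the 13318 genes that passed the filter on low counts. The cells were C2C12, an established line of mouse myoblasts that forms myotubes in culture. The study set a wild-type line (WT, 6 libraries) against a C2C12 line with a genetically encoded calcium indicator (RGECO, 6 libraries). In both lines the myoblasts were grown in medium with fetal bovine serum. On a hydrogel of methacrylated gelatin they differentiated for 14 days in medium with inactivated horse serum, aminocaproic acid and IGF-1. The labels do not say which promoter drives the indicator, whether RGECO is 1 clone, or whether each replicate is a culture of its own. The p-values therefore reflect the variation among these libraries, which may be technical.

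Fusion starts when myoblasts recognise each other through cadherins and other adhesion molecules. Actin is then rearranged at the contact through the GTPase Rac, which Dock exchange factors switch on. Myomaker (Mymk) is a membrane protein that drives mixing of the outer membrane leaflets, and myomerger (Mymx, also called myomixer) is a micropeptide that completes the fusion pore. The ferlins Myof and Dysf are calcium-binding membrane proteins of vesicle fusion and repair.

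The 6 WT libraries held 9370322 to 11744314 counts. RGECO 1, 2, 3, 5 and 6 had between 5881622 and 11926220, and RGECO 4 held 825 counts with 0 counts of any fusion gene and was left out of every value below unless all 12 libraries are named. Summed TPM (transcript levels per length, scaled to 1000000 per library) of 10 myotube markers ran from 11940 to 14156 in WT and from 13713 to 19228 in RGECO. Of the 10, 1 was higher (Myh3) and 1 lower (Actn2) in RGECO by edgeR at an adjusted p under 0.05. Of all tested genes 3.42% were higher and 4.93% lower, and the marker lists below were called in the same way. Acta1 made up most of the sum, with means of 7392 ± 523 TPM in WT (SD, n = 6) and 9486 ± 1589 TPM in RGECO (SD, n = 5), and was not called (edgeR adjusted p = 0.448). The sum of 10 markers of undifferentiated or reserve myoblasts was 319 to 400 TPM in WT and 263 to 323 TPM in RGECO, with Chrdl2 and Calcr at 0, and of 8 tested 1 was higher (Myf5) and 2 lower (Sdc4 and Spry1). Sdc4 was the largest part of that sum, with means of 210 ± 20.6 TPM in WT (SD, n = 6) and 146 ± 13.5 TPM in RGECO (SD, n = 5), while Pax7 was at 5.6 ± 1.22 and 7.85 ± 1.05 TPM (edgeR adjusted p = 0.0822). That of 6 proliferation markers was 74.5 to 147 TPM in WT and 65.2 to 109 TPM in RGECO, with 0 higher and 2 lower (Ccnb1 and Aurkb). For 8 fibroblast markers the sums were 1421 to 2353 TPM in WT and 1860 to 2351 TPM in RGECO, with 2 of 7 tested higher (Dcn and Ly6a) and 3 lower (Pdgfrb, Col1a1 and Col3a1). Markers of adipocytes reached at most 1.05 TPM in sum (Plin1 and Lep at 0), those of endothelial cells 3.55 TPM and those of Schwann cells or neurons 1.91 TPM (Snap25 and Rbfox3 at 0), and leukocyte markers came to 17.8 to 40.0 TPM with Adgre1 at 0. Of the leukocyte sum, Cd68 made up 23.8 ± 3.88 TPM in WT (SD, n = 6) and 26.5 ± 8.56 TPM in RGECO (SD, n = 5), and Ptprc, Csf1r and Aif1 had means of at most 0.142 TPM. The part of these markers in the results was not tested. In bulk RNA, fewer cells of a type and less RNA per cell cannot be told apart.

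Mymx had the shortest locus of the 10 genes and is shown because its whole product fits in 1 line. In GENCODE M21 (build GRCm38) the gene lies at chr17:45600971-45602102 on the minus strand, and its 4 coding transcripts are 437 to 804 bases long. The coding sequence below, at chr17:45601417-45601671 on the minus strand, has 255 bases and encodes 84 residues. The capitals mark the start and stop codons.
Mymx coding sequence: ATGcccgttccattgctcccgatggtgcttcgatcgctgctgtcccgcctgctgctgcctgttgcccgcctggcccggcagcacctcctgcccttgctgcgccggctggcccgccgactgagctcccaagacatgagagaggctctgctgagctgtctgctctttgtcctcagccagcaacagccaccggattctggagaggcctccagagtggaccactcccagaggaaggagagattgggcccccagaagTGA

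The fusion genes spanned a wide range of levels, and the order of the line means was the same in WT and RGECO. By mean TPM it ran Mymk, Mymx, Cdh15, Dysf, Jam2, Myof, Cdh2, Jam3, Dock1 and Dock5. In WT, Mymk stood at 548 ± 43.5 TPM (SD, n = 6), 96.1 times the level of Dock5 at 5.70 ± 0.624 TPM. In RGECO the means were 696 ± 45.9 TPM and 6.32 ± 0.701 TPM (SD, n = 5), a ratio of 110. The 2 fusogens and Cdh15 formed the top of the order in each of the 11 libraries, with no overlap between neighbours. Lower in the order several neighbours did not separate: in WT the TPM ranges of Dysf and Jam2, Jam2 and Myof, Myof and Cdh2, Jam3 and Dock1, and Dock1 and Dock5 overlapped. In RGECO the same pairs overlapped except Jam2 and Myof. Cdh2 was above Jam3 in all 11 libraries, so the set divided into 7 genes with means of 36.3 TPM or more in WT and 3 with means of 7.79 TPM or less.

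**Figure D1:**
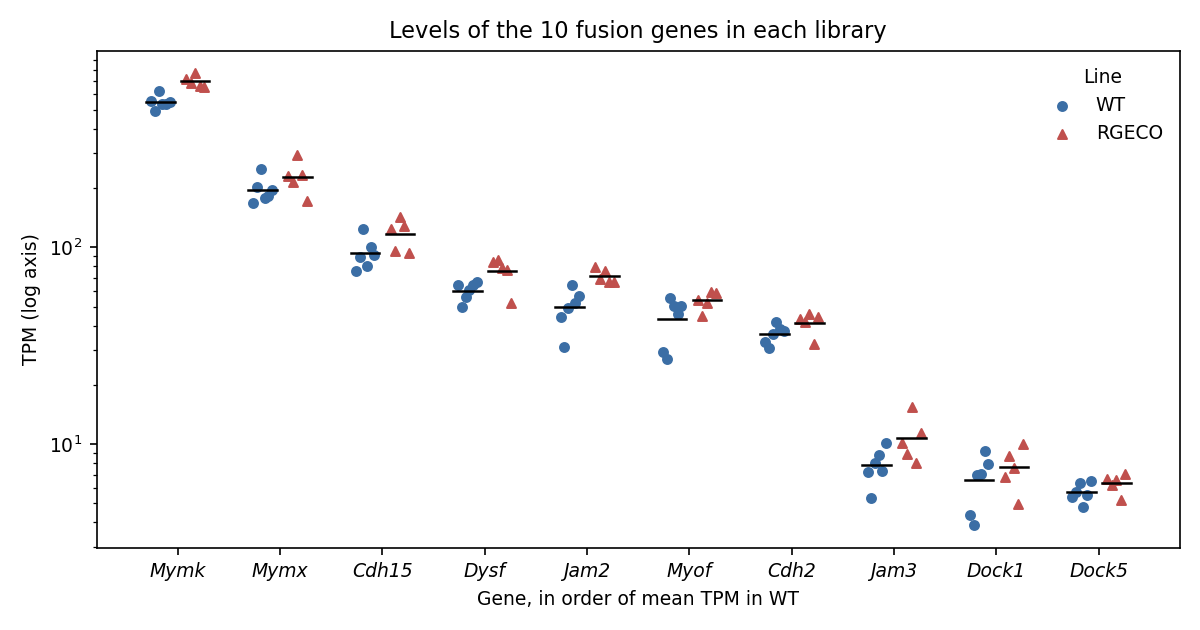
TPM of each fusion gene on a log axis, with 1 point per library (6 WT, 5 RGECO) and a bar at each line's mean, ordered by mean TPM in WT. Mymk is the highest gene (548 TPM in WT, 696 TPM in RGECO), and Jam3, Dock1 and Dock5 lie far below the other 7.

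None of the fusion genes passed the test between the lines on counts. With edgeR's quasi-likelihood test at an adjusted p of 0.05, 0 of 10 were called, against 8.35% of all tested genes (3.42% higher and 4.93% lower in RGECO). DESeq2 also called 0 of 10, against 12.6% of all genes. At an unadjusted p under 0.05, edgeR listed 1 of 10 (Jam2) against 22.1% of all genes, and DESeq2 listed 3 against 23.7%. All 10 had a 95% interval that stayed within 2-fold of no change, as did 74% of all tested genes. Log2 fold changes were above 0 for 8 of 10, against 48.5% of all genes, with a median of 0.17 against -0.01. On the TPM scale, where all genes had a median of 0.09, limma on log2(TPM + 1) called 1 of 10 (Mymk) against 4.54% of all genes.

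**Figure D2:**
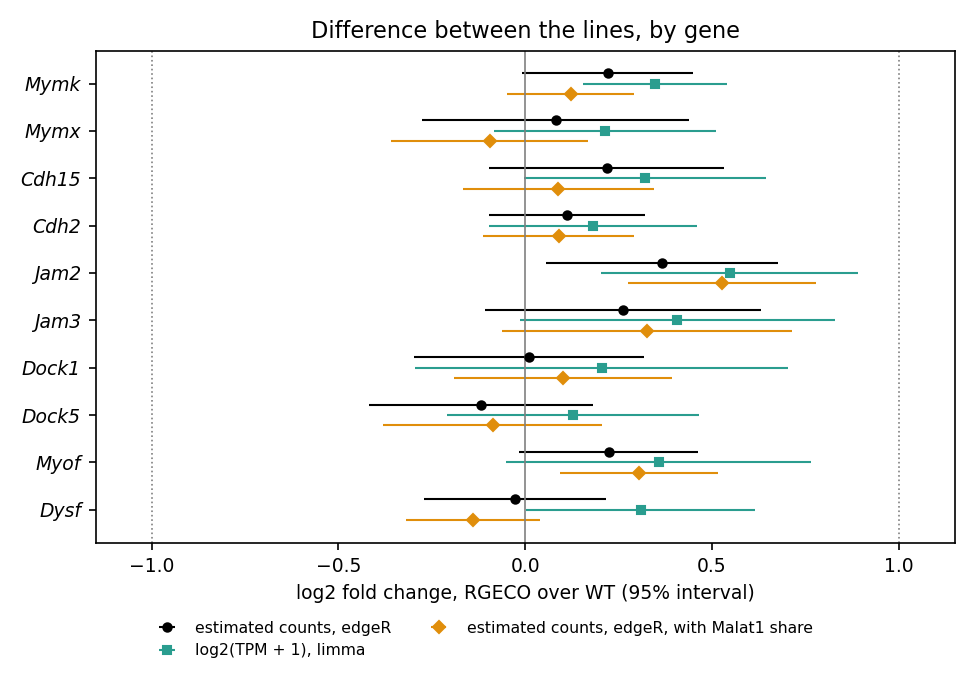
Log2 fold change of RGECO against WT for the 10 fusion genes, with 95% intervals. The fits are of counts (edgeR), of log2(TPM + 1) (limma) and of counts with the share of counts from Malat1 as a covariate (edgeR). Every count interval lies within 2-fold of no change, and Dysf and Dock5 are below 0 on counts (-0.03 and -0.12) and above 0 on TPM (0.31 and 0.13).

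Mymk, which lies at chr2:27061636-27072179 on the minus strand, was the most abundant fusion gene. Its TPM was 554, 494, 626, 534, 532 and 545 in WT 1 to WT 6, and 714, 688, 766, 662 and 651 in RGECO 1, 2, 3, 5 and 6. Every RGECO library was above every WT library. On that scale Mymk was higher in RGECO by 0.35 ± 0.09 (log2(TPM + 1), SE; limma adjusted p = 0.0424). In CPM (counts per 1000000 counts of a library, scaled by TMM) the values were 647, 635, 613, 526, 499 and 477 in WT and 597, 655, 742, 683 and 622 in RGECO. These ranges overlapped, since WT 1 to WT 3 reached the level of the RGECO libraries. The count test gave a log2 fold change of 0.22 ± 0.11 (SE; 95% interval -0.01 to 0.45; edgeR adjusted p = 0.243). The call on TPM was lost when no filter on low values was applied (adjusted p = 0.0845).

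Mymx, the partner of Mymk, varied more between libraries. Its TPM was 169, 203, 249, 178, 182 and 195 in WT and 230, 216, 293, 232 and 172 in RGECO. The lines overlapped, with RGECO 6 among the lowest of all libraries and RGECO 3 the highest. The log2 fold change on counts was 0.08 ± 0.17 (SE; 95% interval -0.28 to 0.44; edgeR adjusted p = 0.837), and it was -0.03 without RGECO 3. Mymk exceeded Mymx 2.44 to 3.29 times by TPM in WT and 2.61 to 3.78 times in RGECO.

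The cadherins hold apposed muscle cells together through calcium-dependent contacts. Cdh15 (M-cadherin) is the muscle cadherin and Cdh2 (N-cadherin) is shared with nerve and heart. Cdh15 (chr8:122847966-122867397, plus strand) stood at 76.0, 89.8, 123, 79.9, 101 and 91.4 TPM in WT and at 124, 96.3, 143, 129 and 93.5 TPM in RGECO. Its ranges overlapped in part, with 3 RGECO libraries above all WT libraries by TPM. The log2 fold change on counts was 0.22 ± 0.15 (SE; edgeR adjusted p = 0.431). Cdh2 was the steadier of the pair: in WT its TPM was 36.3 ± 3.97 (SD, n = 6) with a range of 30.7 to 41.7, and in RGECO 41.4 ± 5.31 (SD, n = 5) with a range of 32.3 to 45.7. These ranges overlapped too, with a log2 fold change of 0.11 ± 0.10 (SE; edgeR adjusted p = 0.560). Only 7.70% of the 7758 genes compared had a smaller SD of log2 CPM within lines than Cdh2 (0.12), against 61.1% for Cdh15 (0.27).

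The Cdh15 promoter is shown because CANNTG words, the letters of the E-box that MyoD-family factors bind, can be counted in it. The window, 250 bases before to 50 after the RefSeq start, is at chr8:122848124-122848423 on the plus strand (RefSeq, build GRCm38.p6). GENCODE M21 starts the gene further upstream, at chr8:122847966, so by that annotation the whole window lies inside the gene. The capitals mark the 4 matches to CANNTG, a word that reads the same on both strands. At least 4 matches were found in 6.49% of 32851 promoter windows of the same length, and at least 1 in 72.3%. A match is a description of the letters only.
Cdh15 promoter: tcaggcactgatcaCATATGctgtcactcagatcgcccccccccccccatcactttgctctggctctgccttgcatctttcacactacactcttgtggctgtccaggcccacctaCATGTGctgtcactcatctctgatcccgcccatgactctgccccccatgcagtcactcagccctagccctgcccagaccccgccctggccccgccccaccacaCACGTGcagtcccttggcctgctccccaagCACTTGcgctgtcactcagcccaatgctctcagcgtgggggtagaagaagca

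Jam2 and Jam3 (JAM-B and JAM-C) are immunoglobulin-type adhesion molecules that bind each other, and in zebrafish this pair is needed for myoblast fusion. Jam2 lies at chr16:84774123-84825928 on the plus strand and Jam3 at chr9:27097384-27155421 on the minus strand. Jam2 had the smallest p of the fusion genes on counts. Its TPM was 44.4, 31.3, 48.9, 64.1, 52.3 and 56.6 in WT and 79.8, 68.8, 75.5, 66.5 and 66.9 in RGECO. All RGECO libraries were above all WT libraries, by a narrow margin between WT 4 and RGECO 5. In CPM the values were 71.2, 59.8, 76.1, 94.2, 94.3 and 101 in WT and 88.7, 109, 103, 98.9 and 133 in RGECO, and the lines overlapped. The log2 fold change on counts was 0.37 ± 0.15 (SE; 95% interval 0.06 to 0.68; unadjusted p = 0.0239), and it failed the correction over all genes (edgeR adjusted p = 0.148). On log2(TPM + 1) it was 0.55 ± 0.16 (SE; limma adjusted p = 0.0692).

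Jam3 was much lower than Jam2 in both lines. WT libraries ranged from 5.34 to 10.1 TPM around a mean of 7.79 ± 1.60 (SD, n = 6), and RGECO libraries from 7.99 to 15.4 TPM around 10.8 ± 2.88 (SD, n = 5). The ranges overlapped, and the log2 fold change on counts was 0.26 ± 0.17 (SE; edgeR adjusted p = 0.420). Jam2 exceeded Jam3 in every library, by 5.61 to 7.29 times in WT and 4.91 to 8.32 times in RGECO.

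By TPM, 2 of 10 fusion genes, Mymk and Jam2, had ranges that did not overlap between the lines, both higher in RGECO, against 5.6% of all tested genes (3.43% in that direction). By CPM, 0 of 10 did so, against 7.97% of all tested genes. The mean was higher in RGECO for 10 of 10 by TPM and for 8 of 10 by CPM. On log2(TPM + 1) the difference was above 0 for 10 of 10 and for 61% of all tested genes.

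Dock1 and Dock5 are exchange factors that activate Rac, and loss of Dock1 in mice impairs fusion. Dock1 lies at chr7:134670654-135173639 on the plus strand and Dock5 at chr14:67752135-67933442 on the minus strand. Both were among the lowest of the set. Dock1 CPM ran from 26.9 (WT 2) to 42.8 (WT 5) in WT with a median of 31.5, and was 32.2, 35.5, 33.2, 25.2 and 36.7 in RGECO. The lines overlapped almost fully, with a log2 fold change of 0.01 ± 0.14 (SE; 95% interval -0.30 to 0.32; edgeR adjusted p = 0.981), which was -0.01 with all 12 libraries and -0.00048 with no filter. Dock5 CPM was 32.7, 36.0, 33.9, 38.8, 36.1 and 34.2 in WT and 33.7, 35.3, 35.5, 20.8 and 36.6 in RGECO. A single library, RGECO 5, stood below all others, and it was also the shallowest, with 119 counts of Dock5. The log2 fold change was -0.12 ± 0.14 (SE; edgeR adjusted p = 0.688), 0.00089 without RGECO 5, and 0.13 on log2(TPM + 1).

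Myof (myoferlin) is prominent in myoblasts about to fuse, and Dysf (dysferlin) is a repair protein of the fibre membrane whose loss causes muscular dystrophy in humans. Myof lies at chr19:37899036-38043577 on the minus strand and Dysf at chr6:84008590-84211060 on the plus strand. Myof CPM was 158, 161, 228, 219, 196 and 193 in WT and 231, 207, 210, 246 and 232 in RGECO. WT 3 and WT 4 lay within the RGECO range and the other 4 WT libraries below it, and the log2 fold change was 0.22 ± 0.11 (SE; 95% interval -0.02 to 0.46; edgeR adjusted p = 0.266). Dysf CPM was 193, 209, 182, 158, 154 and 153 in WT and 171, 174, 194, 178 and 141 in RGECO. The lines overlapped, with a log2 fold change of -0.03 ± 0.11 (SE; 95% interval -0.27 to 0.22; edgeR adjusted p = 0.930).

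For Dysf the direction depended on the scale. Its TPM was 64.4, 49.5, 56.0, 60.5, 64.2 and 66.6 in WT and 84.1, 86.6, 78.5, 76.7 and 52.0 in RGECO. All RGECO libraries but RGECO 6 were above all WT libraries, and the difference on log2(TPM + 1) was 0.31 ± 0.14 (SE; limma adjusted p = 0.247). The ratio of count to TPM, taken relative to the median gene of each library, rises with the transcript length that the authors' quantification used for a gene. For Dysf its log2 was 0.58 ± 0.22 over the WT libraries (SD, n = 6) and 0.34 ± 0.16 over RGECO (SD, n = 5). The difference of -0.23 was below that of all but 4.43% of the 8805 genes compared. Dock5 also had a low difference (-0.20, with 6.11% of genes below). Those of Dock1, Jam3 and Jam2 were -0.12, -0.095 and -0.078, with 12.2%, 15.9% and 18.9% of genes below. The differences of Mymk, Mymx, Cdh15, Cdh2 and Myof lay between -0.03 and 0.03.

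GENCODE M21 lists 16 transcripts of Dysf, 12 of them coding (6432 to 6803 bases long), and RefSeq gives it 2 start sites. The deposited tables do not give levels per transcript, so a part of the start sites in the count-to-TPM ratio was not tested. The promoter windows of both start sites are shown as a description of their letters only. Both are on the plus strand (RefSeq, build GRCm38.p6), the upstream one at chr6:84008348-84008647 and the downstream one at chr6:84019136-84019435. The capitals mark CANNTG, found 0 times in the first and 1 time, as CAACTG, in the second.
Dysf upstream promoter: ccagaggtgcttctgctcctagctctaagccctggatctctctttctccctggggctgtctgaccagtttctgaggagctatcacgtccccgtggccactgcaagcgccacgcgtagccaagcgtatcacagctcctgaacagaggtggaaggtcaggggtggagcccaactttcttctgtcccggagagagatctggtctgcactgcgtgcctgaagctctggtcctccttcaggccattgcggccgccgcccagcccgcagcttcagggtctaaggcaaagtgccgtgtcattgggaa
Dysf downstream promoter: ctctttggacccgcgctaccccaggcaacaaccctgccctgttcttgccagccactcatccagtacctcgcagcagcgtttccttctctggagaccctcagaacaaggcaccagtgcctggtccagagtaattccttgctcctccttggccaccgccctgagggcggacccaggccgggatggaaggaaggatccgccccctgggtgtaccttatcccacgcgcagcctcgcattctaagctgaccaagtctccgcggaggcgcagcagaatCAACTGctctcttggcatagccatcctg

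Windows were found for 4 of the 10 genes (5 windows), with 1 CANNTG for Dock1 and 0 for Myof. The word CAGCTG was in 0 of the 5 windows and in 16.3% of all windows.

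No difference between the lines was detected in the TPM ratio of partner genes within a library for any of 5 pairs. Mymk to Mymx had a geometric mean ratio of 2.81 in WT and 3.08 in RGECO by TPM (log2 difference 0.13, two-sided exact permutation p = 0.251, adjusted p = 0.823 over the 5 ratios). For Cdh15 to Cdh2 it was 2.56 and 2.81 (exact permutation p = 0.481), and for Jam2 to Jam3 6.33 and 6.81 (exact permutation p = 0.494), both with adjusted p = 0.823. These 3 ratios were above 1 in all 11 libraries. Dock1 to Dock5 was 1.11 and 1.18 and Myof to Dysf 0.693 and 0.718 (exact permutation p = 0.725 and 0.840, both adjusted p = 0.840). Dock1 to Dock5 lay on either side of 1, from 0.678 to 1.67 in WT. Myof to Dysf was below 1 in every WT library (0.455 to 0.987). In RGECO it ran from 0.518 to 1.12 and was above 1 only in RGECO 6. The smallest p that the 462 assignments allow is 0.00216. These ratios are by TPM, and the scale matters for Dysf: on counts, edgeR gave log2 fold changes of 0.22 for Myof and -0.03 for Dysf.

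**Figure D3:**
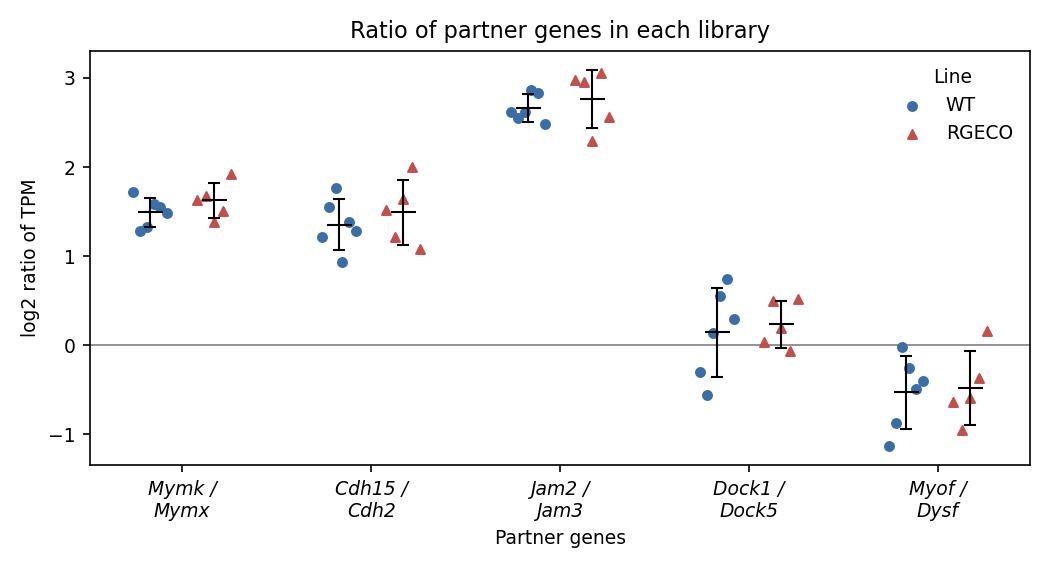
Log2 ratio of TPM for the 5 pairs of partner genes, with 1 point per library (6 WT, 5 RGECO), the mean and bars of 1 SD. WT and RGECO points overlap for each pair, and Mymk stands above Mymx by 1.49 ± 0.16 in WT and 1.62 ± 0.20 in RGECO.

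Libraries of the same line differed from each other in a pattern that several fusion genes shared. After each line's mean log2 CPM was subtracted, Mymk and Dysf were on the same side of their means in 9 of 11 libraries, Mymx and Cdh15 in 10 of 11, and Jam2 and Dock1 in 10 of 11. These pairs, and those with Jam2 below, were picked from 45 after their values were seen. The SD of the log2 ratio within lines was 0.09 for Mymk and Dysf, 0.14 for Mymx and Cdh15 and 0.19 for Jam2 and Dock1. It is small when 2 genes move together and also when both are steady, as for Mymk and Cdh2 (0.16), which shared a side in 6 of 11 libraries. Jam2 went the other way from the fusogens: it was on the opposite side from Mymk in 10 of 11 libraries, from Dysf in 10 and from Mymx in 9, with SDs of the log2 ratio of 0.39, 0.43 and 0.53. The genes share each library's depth and RNA quality, so these values are descriptions with no test.

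The libraries also differed in the share of counts from mitochondrial genes. It was 1.68% in WT 4, 1.16% in WT 5, 1.59% in WT 6 and 1.33% in RGECO 6, and 0.204% to 0.754% in the other 7. In each of these 4 libraries the log2 CPM of Mymx and Dysf was below the line's mean and that of Jam2 and Dock1 above it. Among the other 7, Dysf was above its mean in all. Mymx was below its mean in WT 1, RGECO 1 and RGECO 2 too, Jam2 above in RGECO 2, and Dock1 above in RGECO 2 and RGECO 3. RGECO 6 was the lowest RGECO library for Mymx, Cdh15 and Dysf and the highest for Jam2 and Dock1. With the mitochondrial share as a covariate in edgeR, Jam2 was higher in RGECO by 0.51 ± 0.09 (log2, SE; adjusted p = 2.63e-04), and 1 of 10 fusion genes was called against 23.5% of all genes. With the share of counts from Malat1, a nuclear noncoding RNA, as the covariate, Jam2 (0.53 ± 0.12, adjusted p = 0.00473) and Myof (0.31 ± 0.10, adjusted p = 0.0397) were called, 2 of 10 against 20.8% of all genes, and Mymx was at -0.10 (adjusted p = 0.633). Beyond these fits, the part of RNA quality in the pattern was not tested.

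**Figure D4:**
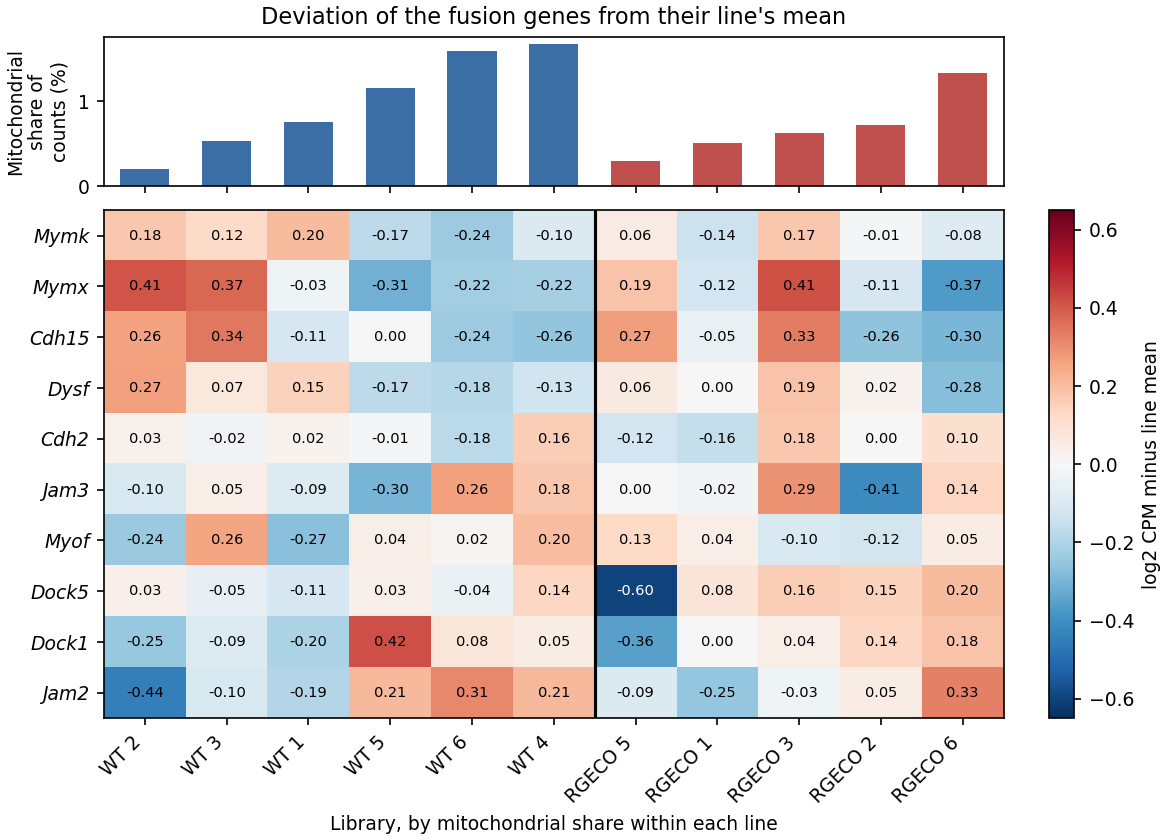
Log2 CPM of each fusion gene in each library minus the mean of its line (colour and printed value), with libraries ordered by mitochondrial share of counts, shown as bars in percent. In the libraries with a share above 1% (WT 4, WT 5, WT 6 and RGECO 6) Mymx and Dysf are below their line's mean and Jam2 is above it.

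Tmem38a, an ion channel of the sarcoplasmic reticulum, was among the 3 genes whose pattern over the 11 libraries was most like that of Mymk. Its log2 ratio to Mymk had an SD of 0.09, where Mymk itself had an SD of 0.20, among 5917 genes compared. The 3 genes most like Mymx were Plec (plectin, a cytoskeletal linker), Flnc (the muscle filamin) and Ahdc1. Their SDs were 0.10, 0.11 and 0.11 against 0.30 for Mymx itself, among 2987 genes compared.

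Other genes of the fusion machinery included some that differed between the lines. Of 54 tested genes for adhesion, actin remodelling and membrane signals in fusion, 4 were higher and 5 lower in RGECO by edgeR, where 3.42% and 4.93% of all genes were. The median log2 fold change was 0.06, and the 95% interval lay inside 2-fold for 45 of the 54, and for 74% of all tested genes. Among 18 adhesion and receptor genes 0 were higher and 2 lower. Adam12, a metalloprotease-disintegrin of the myoblast surface, fell from 3.51 ± 0.77 TPM (SD, n = 6) to 0.827 ± 0.178 TPM (SD, n = 5) (log2 fold change -1.88 ± 0.18, SE, edgeR adjusted p = 1.51e-05). Cdh11, a cadherin of mesenchymal cells, fell from 1.74 ± 0.94 to 0.258 ± 0.288 TPM (log2 fold change -3.70 ± 0.49, SE, edgeR adjusted p = 2.19e-04). Both are low genes next to Cdh15 and Cdh2, and their summed counts were not whole, so part of their reads was shared with other genes. Cdh11 held 363 counts over all WT libraries and 21 over all RGECO libraries, so the size of its fall is uncertain. Its difference was -1.08 on log2(TPM + 1) and -2.57 on log2(TPM + 0.1). The Cdh11 call was lost with TPM and no filter (adjusted p = 0.112).

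Of 23 actin remodelling genes 2 were higher and 2 lower, where 3.42% and 4.93% of all tested genes were. Elmo1, a partner that Dock proteins need to activate Rac, fell from 8.43 ± 2.81 to 2.76 ± 1.34 TPM (log2 fold change -1.50 ± 0.27, SE, edgeR adjusted p = 0.00249). The related Elmo2 stood at 17.6 ± 2.98 and 24.1 ± 11.7 TPM, with a log2 fold change of 0.18 ± 0.14 (SE; edgeR adjusted p = 0.512). The GTPases Rhoa (0.65 ± 0.15, adjusted p = 0.0155) and Rac1 (0.35 ± 0.10, adjusted p = 0.0357) were higher, and the adaptor Sh3d19 (-0.35 ± 0.09, adjusted p = 0.0171) was lower. These 3 calls did not hold throughout: on log2(TPM + 1) the adjusted p was 0.0510 for Rhoa, 0.123 for Rac1 and 0.346 for Sh3d19, and leaving out 1 library took it as high as 0.0857 for Rac1 (lost without WT 1, 3 or 5 or RGECO 1, 2 or 6) and 0.0614 for Sh3d19 (lost without WT 5 or RGECO 2 or 6). With all 12 libraries none of the 3 passed (adjusted p = 0.803, 0.911 and 0.483). The Adam12 and Elmo1 calls held in every alternative fit. The counts of Rhoa were partly shared with other genes.

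Of 13 membrane and lipid genes 2 were higher and 1 lower, where 3.42% and 4.93% of all tested genes were. Ehd2, an ATPase of caveolae that binds myoferlin, rose from 58.9 ± 8.88 to 86.7 ± 3.71 TPM (log2 fold change 0.52 ± 0.10, SE, edgeR adjusted p = 0.00278). Anxa1, a calcium-dependent membrane-binding annexin, rose from 253 ± 61.6 to 459 ± 73.6 TPM (log2 fold change 0.75 ± 0.15, SE, edgeR adjusted p = 0.00519). Cav3, the muscle caveolin, fell from 83.2 ± 13.1 to 52.9 ± 8.17 TPM (log2 fold change -0.80 ± 0.19, SE, edgeR adjusted p = 0.0143), and the call was lost without RGECO 2 (adjusted p = 0.0518). Ehd2 and Anxa1 missed the threshold in the fit of all 12 libraries (adjusted p = 0.695 and 0.542), and Ehd2 and Cav3 on unfiltered log2(TPM + 1) (adjusted p = 0.0560 and 0.0646). The other ferlins, Otof, Fer1l4, Fer1l5 and Fer1l6, held 0 to 34 counts in all libraries of a line, so Myof and Dysf carried nearly all ferlin counts.

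Among 7 myogenic transcription factor genes, those that switch on muscle genes, 1 was higher and 2 lower in RGECO by edgeR. Of all tested genes, 3.42% were higher and 4.93% lower. Myog, a driver of Mymk and Mymx, stood at 499 ± 107 TPM in WT and 479 ± 104 TPM in RGECO, and the test did not separate them (log2 -0.18 ± 0.17, SE, adjusted p = 0.596). Myod1 was lower (77.9 ± 6.38 and 59.8 ± 15.0 TPM, -0.51 ± 0.13, adjusted p = 0.0277). Myf6 was lower (-0.89 ± 0.24, adjusted p = 0.0283) and Myf5 higher (0.58 ± 0.15, adjusted p = 0.0228). All 3 calls were lost on log2(TPM + 1), with adjusted p of 0.141, 0.0613 and 0.0700, and when single libraries were left out, with adjusted p up to 0.0985 for Myod1 (lost without WT 1, 3 or 5 or RGECO 2, 5 or 6), 0.0639 for Myf6 (lost without WT 1, 3, 4 or 5 or RGECO 1 or 2) and 0.0656 for Myf5 (lost without RGECO 1). They were also lost with all 12 libraries (adjusted p = 0.186 for Myod1, 0.0683 for Myf6 and 0.0796 for Myf5), and that of Myf6 with no filter (adjusted p = 0.0925).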

How the data were processed

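Poly(A)-selected RNA of 6 WT and 6 RGECO libraries was sequenced, per the labels' protocols. The authors deposited estimated counts per gene, not normalised, and TPM per gene, scaled by transcript length to 1000000 per library, both made with Salmon, per the file names. The submitters' processing notes list the builds mm10, hg19 and GRCm39 and the tools STAR, Salmon, bedtools 2.25.0 and BWA 0.7.12-r1039. What each was used for, the annotation release and strandedness were not given in the sources used here. Without strand, reads of antisense genes cannot be told apart, and those annotated over Jam3 and Dysf held at most 27 counts per line. Counts were not checked for 2 overlapping protein-coding genes, Fam196a (opposite strand, over Dock1) and Gm20388 (same strand, over Cdh15). Coordinates are from GENCODE M21 (GRCm38) and were matched by symbol.

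RGECO 4 (825 counts) was left out by a minimum of 1000000 counts, leaving 11 libraries. Estimated counts were rounded (all 110 values of the fusion genes were whole within 0.01), filtered with filterByExpr, scaled by TMM and tested in R 4.3.3 using edgeR 4.0.16 (quasi-likelihood F test, Benjamini-Hochberg adjustment over 13318 genes, threshold 0.05). The common coefficient of variation was 25.2%. Alternatives were DESeq2 1.42.0, limma 3.58.1 on log2(TPM + 1) and log2(TPM + 0.1), no filter, all 12 libraries, covariates, a replicate block and leaving out each library. Floors of 3 counts were 0.252 to 0.510 CPM, for counting error only. The main edgeR fit alone was tested on simulated data, where it recovered 64.6% of genes changed 2-fold and 94.8% of those changed 4-fold.

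Partner ratios were tested by exact permutation, two-sided. Likeness to Mymk and Mymx was ranked among genes of mean log2 CPM 4 or more whose SD was no smaller. Named genes were the 10 members, the 12 listed pathway genes past the threshold, Myog, the 3 genes most like Mymk and Mymx each, of which some are not reported here, and Elmo2, which was named after its values were seen. The members and lists were chosen with earlier results of these data known.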

Additional observations from a re-analysis of the deposited data

Results flagged for a closer look

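Of 50 sets of values checked for a library far from the rest of its line, 2 stood out. By chance about 1 in 20 such sets would. Dock5 in RGECO 5 was at 20.8 CPM, where the other 4 RGECO libraries lay between 33.7 and 36.6 CPM. Dysf in RGECO 6 was at 52.0 TPM, where the other 4 lay between 76.7 and 86.6 TPM, and its gap was 0.714 of the range against a critical value of 0.71.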

How the results depend on the processing

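The count of fusion genes past the threshold, 0 with edgeR on counts, was 1 with log2(TPM + 1), 1 with log2(TPM + 0.1), 1 with the mitochondrial share and 2 with the Malat1 share as covariate, and 0 each time 1 library was left out. Over all genes, 1112 with edgeR became 1674 with DESeq2, 605, 587 and 258 with log2(TPM + 1), log2(TPM + 0.1) and unfiltered TPM, and 3133 and 2771 with the mitochondrial and Malat1 covariates. Leaving out 1 library gave 785 to 1140.

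Of 200 log2 fold changes of fusion genes under alternatives, 176 kept their direction and side of the threshold, 5 gained a call and 19 turned, none of the turned ones past the threshold. Mymx was -0.045 and -0.10 with the mitochondrial and Malat1 covariates and -0.035 to 0.18 with 1 library left out. Dock1 was -0.00048 with no filter, -0.0064 with all 12 libraries and -0.033 to 0.12 with 1 left out. Dock5 was 0.13, 0.15 and 0.13 and Dysf 0.31, 0.31 and 0.31 with the 3 TPM fits, and with 1 library left out they ran from -0.15 to 0.00089 and from -0.076 to 0.053. The Myof to Dysf ratio ran from -0.11 to 0.17 and the Dock1 to Dock5 ratio from -0.052 to 0.21 with 1 left out. The cause was not tested.

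Replicate numbers did not pair the lines, with correlations of same-numbered libraries from -0.15 to 0.36, and 1 of 5 WT libraries was most like the RGECO library of its own number. The replicate block, in 10 libraries without WT 4, called 781 genes and 0 fusion genes, with Jam2 at 0.43 (adjusted p = 0.0876). Among the named pathway genes, Rac1 (0.0670), Sh3d19 (0.0885), Myf5 (0.0652) and Myf6 (0.102) had an adjusted p above 0.05 in that fit, and Myf6 was above it without WT 4 alone (0.0544). Depth limits Jam3 most, with 69 to 160 counts per library.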
